A study of Mus musculus with 23 samples.

Results

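Libraries 18 to 23 were set against libraries 1 to 4, the 10 Slc11a2 knockdown libraries of a series of 23 bulk RNA-seq libraries of hippocampal microglia. They are all the libraries that the count table names as knockdown, and the library number in their names puts them in an early run of 4 and a late run of 6. Libraries 1, 2 and 3 were WT and library 4 carried APP/PS1, whereas libraries 19 and 22 were WT and libraries 18, 20, 21 and 23 carried APP/PS1. The other 13 libraries, 5 to 17, were Control. Every mouse was Slc11a2 fl/fl; Cx3cr1 Cre-ERT2+/- on a mixed 129S;C57BL/6J background, either hemizygous for the APP/PS1 transgenes, which drive amyloid deposition in brain, or a WT littermate. Knockdown mice received tamoxifen by oral gavage at 4 mg a day for 5 days at 5 to 6 months of age, Control mice received corn oil, and cells were collected at 15 to 18 months from female mice by papain digestion, Percoll separation and a CD11b magnetic sort. Cre under the Cx3cr1 promoter acts in microglia and in other cells that use this promoter, and Control mice carried the same Cre and floxed alleles. Neither the labels nor the methods say whether the library numbers follow a day of dissection, extraction or sequencing, so the runs are called runs here, and anything else that differed between them cannot be told apart from the run. No Control library has a number within either run.

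Slc11a2 encodes DMT1, an importer of ferrous iron, and Cre removes the exons between its loxP sites. Microglia are the resident macrophages of the brain. Their resting state is marked by P2ry12, Tmem119 and Cx3cr1, and near amyloid they raise Spp1, Gpnmb, Lgals3 and Apoe. Immediate early genes such as Fos and Egr1 and the inducible chaperones Hspa1a and Hspa1b respond within minutes to hours to handling, enzymes and warmth, and are well known in microglia taken from digested tissue. Ribosomal protein and respiratory chain genes encode small proteins from short, abundant mRNAs. Large nuclear proteins such as Srrm2 and Tpr come from long mRNAs of many exons. In full-length RNA-seq a long transcript gives more reads than a short one at an equal number of molecules, so all comparisons were made gene by gene between libraries.

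The 10 libraries held 33418857 to 52188165 counts on genes, and the runs overlapped in depth. Slc11a2 itself, counted over the whole gene, lay at 37.1, 31.4, 26.8 and 37.5 CPM in libraries 1 to 4 (CPM, counts scaled to a common library size with TMM factors over 23 libraries). It lay at 51.6, 36.5, 58.6, 74.4, 37.7 and 57.7 CPM in libraries 18 to 23, against 29.6 to 47.8 CPM in 12 Control libraries. Libraries 18, 20, 21 and 23 lay above the Control range and the early run lay within or below it, and the runs did not differ past the threshold (edgeR, log2 fold change 0.43, SE 0.17, adjusted p = 0.0921). A whole-gene count does not isolate the floxed exons, so it checks neither run for the deletion. The microglial marker P2ry12, a purine receptor, was at 2983 to 5856 CPM in the early and 2063 to 5566 CPM in the late run (edgeR adjusted p = 0.795), with the APP/PS1 libraries of both runs below the WT ones, and Tmem119 followed the same order (adjusted p = 0.971). The p-values measure the spread between these libraries, each labelled as a sample of its own.

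Of 17060 genes tested, 1694 were higher in libraries 18 to 23 (9.93%) and 1520 were lower (8.91%) by edgeR's quasi-likelihood test with genotype as a covariate, at an adjusted p under 0.05. The median over all genes was 0.02 on the log2 scale. The counts rested on few libraries. Without library 4, the sole APP/PS1 library of the early run, 91 genes were higher and 100 lower, and without library 22, 44 and 76. Without library 2 or 3 the counts were 1073 and 994 or 1078 and 951. Of 94 genes named in this text that passed, 29 also passed without library 4 and 27 without library 22. The 21 that passed whichever library was left out were Per1, Tagap, Tpr, Acin1, Larp1, Csf1, Egr1, Jund and Myc among the lower genes, and Prkd1, Rps7-ps3, Enpp2, Aqp1, Folr1, Igfbp2, Prlr, Asb10, Spp1, Bcl2a1d, H2-Aa and H2-Ab1 among the higher ones. Aqp1 and Prlr had no count in libraries 1 to 4 and entered the test through the late run alone, and Folr1 and Igfbp2 were under 1 CPM in each early library, so these 4 describe the late run.

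Transcript length ordered the differences. Genes were put in 8 equal groups by the length of the canonical transcript in GENCODE M39. In the shortest group, up to 947 bases, 15.3% of 2121 genes were higher in libraries 18 to 23 and 1 gene was lower. In the next group, up to 1606 bases, 22.1% were higher and 0.378% lower. In the longest group, from 6170 bases up, 1.94% were higher and 31% lower. The median log2 fold change went down at each step, from 0.68 over 0.52, 0.30, 0.11, -0.05, -0.20 and -0.42 to -0.73. Short transcripts were therefore higher and long transcripts lower in the late run, and the middle groups were near 0. Among protein-coding genes alone the shortest group had 46.6% of 521 genes higher and 0 lower.

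The same order was seen library by library. A length index was formed for each library as the median deviation from the gene's mean in the shortest group minus that in the longest group, on the log2 scale. It was -0.604, -0.914, -1.12 and -0.491 in libraries 1 to 4. It was 0.325, 0.0368, 0.87, 1.66, 0.923 and 1.32 in libraries 18 to 23, so that no library of the late run lay below any of the early run (genotype-adjusted difference 1.43, exact permutation p = 0.020, adjusted p = 0.0311, the smallest p the 50 splits within genotype can give). Library 19 came nearest to the early run and library 21 lay farthest from it. The 12 Control libraries ranged from -0.788 to 0.137, and the 13th, library 10, which the study left out, stood at 1.46. Within WT the early libraries were at -0.604, -0.914 and -1.12 and the late ones at 0.0368 and 0.923. Within APP/PS1 the early library was at -0.491 and the late ones at 0.325, 0.87, 1.66 and 1.32.

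**Figure D1:**
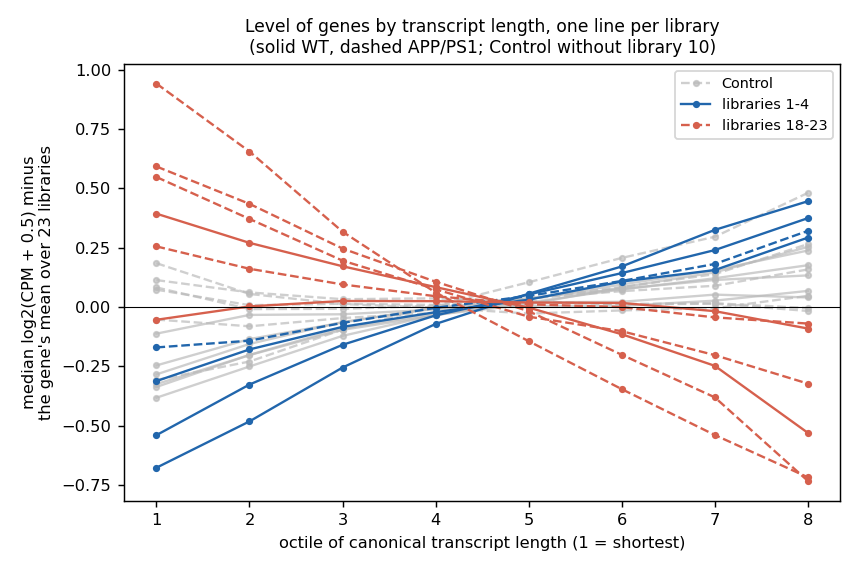
Median log2 deviation of genes from their mean over 23 libraries (vertical axis) by octile of canonical transcript length (horizontal axis), with 1 line per library. The lines of libraries 1 to 4 end higher for the longest than for the shortest transcripts and those of libraries 18 and 20 to 23 end lower, while library 19 is close to flat with an index of 0.0368.

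Exon number was looked at beside length. Genes of 33 or more exons had a median log2 fold change of -0.96, with 40.8% of 463 lower, whereas genes of 5 to 8 exons had 0.23 with 18.2% of 3957 higher. Among transcripts in the longest quartile, of 4629 bases and more, the median was -0.24 for 740 genes of 5 to 8 exons, -0.47 for 1182 genes of 9 to 16, -0.78 for 1281 genes of 17 to 32 and -0.98 for 444 genes of 33 or more. In the shortest quartile the median lay between 0.50 and 0.64 whatever the exon number up to 16. In the longest quartile the medians for 1, 2 and 3 to 4 exons were -0.14, -0.33 and -0.23. The median thus went down with exon number from 5 exons up among long transcripts, and hardly among short ones. Length was not held fixed within a quartile. Genes of 17 to 32 exons had a median length of 5000 bases and those of 33 or more 8049 bases. Gene span, from start to end in the genome, ordered the difference too, from 0.45 in the shortest octile to -0.56 in the longest. GC content ordered the difference weakly, from -0.17 in the octile of lowest GC to 0.13 in the highest.

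**Figure D2:**
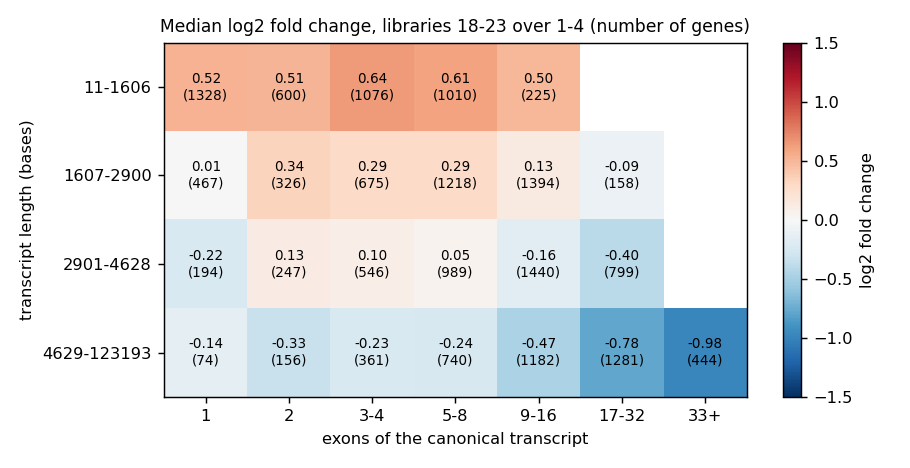
Median log2 fold change of libraries 18 to 23 over 1 to 4 by quartile of transcript length (rows, in bases) and exon number (columns), with the number of genes in brackets and cells under 20 genes left blank. Medians go from 0.64 among short transcripts of 3 to 4 exons to -0.98 among long transcripts of 33 or more exons.

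The genes of the ribosome and the respiratory chain rose together in libraries 18 to 23. Of 81 cytosolic ribosomal protein genes tested, 73 were higher and 0 lower, with a median log2 fold change of 0.99, and of 78 nuclear genes for subunits of the respiratory chain and ATP synthase, 73 were higher and 0 lower, with a median of 0.91. Mitochondrial ribosomal proteins followed with 43 of 77 higher (median 0.65) and proteasome subunits with 23 of 38 (median 0.54), and neither list had a lower gene in this fit. By DESeq2, with the stricter filter, without the genotype term or with 22 or 23 libraries in the fit, 2 proteasome genes were lower. The median transcript length was 1096 bases in the ribosomal list and 1090.0 in the respiratory list, against 2900.0 over all genes. Ribosomal protein genes took 9.58% ± 1.71 (SD, n = 4) of all counts in the early run and 17.6% ± 3.39 (SD, n = 6) in the late run (genotype-adjusted difference 6.55, exact permutation p = 0.020, adjusted p = 0.0311). The calls rested on libraries 4 and 22. Without library 4 or 22, 1 or 0 ribosomal and 4 or 2 respiratory genes passed, while the ribosomal median was 1.01 or 0.78 and the respiratory median 0.94 or 0.76. Of the mitochondrial ribosomal genes 1 or 0 passed as higher, and of the proteasome genes 0 or 0.

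Rps14, a protein of the small ribosomal subunit, was at 3577, 2772, 2287 and 4433 CPM in libraries 1 to 4. It was at 6664, 4669.6, 9907, 15421, 8943 and 9582 CPM in libraries 18 to 23, all above the early run (edgeR, log2 fold change 1.25, SE 0.25, adjusted p = 0.00984). Ndufb1, a subunit of complex I, had 40.7, 27.8, 23.9 and 51.1 CPM in libraries 1 to 4 and 82.8, 60.3, 112, 167, 90.2 and 105 CPM in libraries 18 to 23 (edgeR, log2 fold change 1.27, SE 0.23, adjusted p = 0.00873). In both genes library 21 was the highest and library 19 the lowest of the late run, the order of the length index at its ends. Rps21 (1.23, adjusted p = 0.00927), Rpl34 (1.22, adjusted p = 0.0135), Mrps18c of the mitochondrial ribosome (1.4, adjusted p = 0.00914), Atp5mk of the ATP synthase (1.23, adjusted p = 0.00848) and the proteasome subunit Psmb5 (1.05, adjusted p = 0.0131) were also higher by edgeR on the log2 scale. Gpx4, the peroxidase that guards membranes against iron-driven lipid oxidation and has a short mRNA, was at 154 to 273 CPM in the early and 296 to 739 CPM in the late run (edgeR, log2 fold change 1.0, SE 0.17, adjusted p = 0.00859).

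Noncoding genes and pseudogenes went both ways. Host genes of small nucleolar RNAs, short spliced noncoding transcripts, had 5 of 19 members higher and 0 lower (median 0.75). With the correction for length described further on 3 were higher and 0 lower (median 0.19). Gas5, a member of this list, was at 179, 121, 128 and 122 CPM in libraries 1 to 4 and 293, 241, 426, 650.2, 443 and 447 CPM in libraries 18 to 23 (edgeR, log2 fold change 1.52, SE 0.27, adjusted p = 0.00867). Pseudogenes, most of which are copies of spliced mRNAs, had 66 of 854 higher and 6 lower, with a median of 0.52. The share that was higher, 7.73%, was below that over all genes, and with the correction for length described further on 5 were higher and 2 lower, with a median of -0.28. Those named for ribosomal proteins had a median of 0.95, near that of the ribosomal genes themselves, and such near-identical copies can take reads from their parents. Under the correction the median was 0.01 for these pseudogenes, with 1 of 92 higher, and 0.24 for the ribosomal genes. For lncRNA genes the median was 0.28, with 2.09% of 1959 higher and 0.459% lower, at a median level of 0.371 CPM. With the correction 9 lncRNA genes were higher and 17 lower, and the median was -0.25. Unspliced models of the TEC class had 2 of 402 higher and 4 lower (median -0.91, or -0.72 in WT and 0.46 in APP/PS1 libraries alone). The shares called among lncRNA and TEC genes were below the 9.93% and 8.91% over all genes, and RNAs known to stay in the nucleus had 0 of 10 higher and 1 lower (median -0.72). Xist, the nuclear RNA that coats the inactive X chromosome, was lower (-0.59, adjusted p = 0.0425), but lay at 0.45 with the correction. Histone genes, whose main mRNAs have no poly(A) tail, had a median of 0.69 and no member past the threshold among 30.

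Mitochondrially encoded RNA was higher in part. Of 10 mitochondrial mRNAs 3 were higher and 0 lower (median 0.41), and of 9 rRNA and tRNA genes 3 were higher and 0 lower (median 1.23). Over all genes 9.93% were higher and 8.91% lower. With the correction for length 1 of the mRNAs and 0 of the rRNA and tRNA genes were higher. That mRNA, mt-Co3, was at 0, 0, 0 and 0.207 CPM in libraries 1 to 4 and 1.27, 0.628, 0, 0.432, 174 and 3.31 CPM in libraries 18 to 23, with library 22 far above the others, and it did not pass without that library. mt-Nd1, a complex I subunit, had a log2 fold change of 0.93 (adjusted p = 0.00861) and the small rRNA mt-Rnr1 1.11 (adjusted p = 0.0351). As a share of all counts, mitochondrial genes took 0.996 to 2.05% in the early and 1.03 to 2.73% in the late run, ranges that overlapped, and the difference did not pass the adjusted threshold (genotype-adjusted difference 0.515, exact permutation p = 0.040, adjusted p = 0.0509).

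At the other end of the length scale stood single genes chosen for their fold or p. A list of splicing factors is given with them, but its median transcript length was 3145 bases, against 2900 over all genes. Tpr, a protein of the nuclear pore basket with a transcript of 7639 bases, was at 17.3, 17.2, 16.8 and 20.1 CPM in libraries 1 to 4. It was at 4.67, 3.67, 5.35, 7.07, 4.31 and 3.31 CPM in libraries 18 to 23 (edgeR, log2 fold change -2.03, SE 0.24, adjusted p = 0.00303). Srrm2, a scaffold of nuclear speckles, had 90.2 to 119 CPM in the early and 11 to 37.7 CPM in the late run (edgeR, log2 fold change -1.98, SE 0.36, adjusted p = 0.00873), and libraries 22 and 23 were the lowest. No late library reached an early one in either gene. Among 30 splicing factor genes 8 were lower and 1 was higher, with a median of -0.20. Without library 4 or 22, 3 or 2 were lower and none higher, and with the length correction described in the next paragraph 10 were lower with a median of -0.44. Over all genes 8.91% were lower and 9.93% higher, or 3.64% and 4.75% with the correction. The RNA-binding Rbm25 (-1.69, adjusted p = 0.0343) and Hnrnpu (-1.51, adjusted p = 0.00848) were lower and the splicing factor Srsf3 (0.52, adjusted p = 0.034) was higher. Acin1, which binds spliced RNA, fell (-1.63, adjusted p = 0.00345), as did Larp1, a regulator of ribosomal protein mRNAs (-1.75, adjusted p = 0.00345), and the myosin gene Myo18b (-2.66, adjusted p = 0.00551).

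To set length aside, the fit was repeated with an offset for each library that removes its smooth trend on transcript length and GC content. With it, 811 genes (4.75%) were higher and 621 (3.64%) lower, and 1026 of these had also been called without it. The ribosomal median fell from 0.99 to 0.24, with 21 of 81 higher, and the respiratory median from 0.91 to 0.22, with 19 of 78 higher. The mitochondrial mRNA median turned from 0.41 to -0.24. By contrast the immediate early genes stayed at -1.0 and the MHC class II genes at 0.87. The annotated canonical length need not be the length present in microglia, and the trend itself was estimated from the genes compared.

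**Figure D3:**
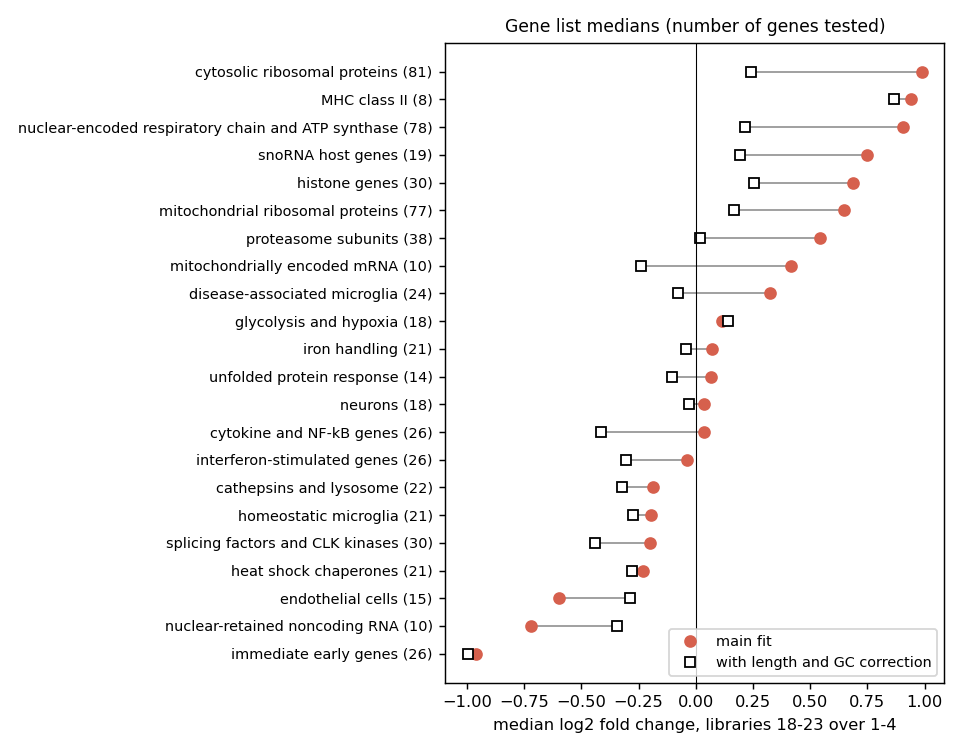
Median log2 fold change of libraries 18 to 23 over 1 to 4 (horizontal axis) for gene lists (rows, with the number of genes tested), without and with the length and GC correction. The ribosomal, respiratory and proteasome lists move toward 0 with the correction, whereas the MHC class II and immediate early lists stay at 0.87 and -1.0.

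Several immediate early genes were lower in libraries 18 to 23. Of 26 tested, 9 were lower and 0 higher, with a median log2 fold change of -0.96, and with the length correction 10 were lower. Over all genes 8.91% were lower, or 3.64% with the correction. The list median was -1.34 in WT and -0.33 in APP/PS1 libraries alone. Without library 4 or 22, 5 or 3 passed, with medians of -1.28 and -0.97. Most of these genes encode transcription factors that are switched on within minutes of a stimulus. Fosb, of the AP-1 family, was at 897, 909, 388 and 359 CPM in libraries 1 to 4. It was at 139.6, 103, 112, 354, 184 and 194 CPM in libraries 18 to 23, where the highest late library, 21, still lay below the lowest early one (edgeR, log2 fold change -1.78, SE 0.44, adjusted p = 0.0161). Klf4 (-2.84, adjusted p = 0.0264) and Klf2 (-1.53, adjusted p = 0.0496), zinc finger factors, were lower too, and library 21 overlapped the early run in both. The other members that passed, given here because the count is small, were Myc (-1.31), Jun (-1.22), Egr1 (-1.1), Jund (-1.06), Egr2 (-0.71) and Fos (-0.65). As a share of counts the list took 2.34, 2.43, 1.84 and 1.9% in libraries 1 to 4 and 1.12, 1.09, 1.04, 1.65, 1.24 and 1.42% in libraries 18 to 23 (genotype-adjusted difference -0.859, exact permutation p = 0.020, adjusted p = 0.0311). The Control libraries spanned 1.2 to 2.75%, so that all 4 early libraries lay within the Control range and libraries 18, 19 and 20 lay below it.

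Among 21 heat shock chaperones 5 were lower and 3 higher, where 8.91% were lower and 9.93% higher over all genes. Without library 4 or 22, 2 or 0 chaperones passed as lower and none as higher. The inducible HSP70 genes had the largest differences of those that passed in the full fit. Hspa1b lay at 45.3, 57.6, 13.7 and 25.7 CPM in libraries 1 to 4. It lay at 4.2, 1.64, 5.35, 9.99, 2.14 and 6.91 CPM in libraries 18 to 23, below every early library (edgeR, log2 fold change -3.48, SE 0.57, adjusted p = 0.0082). Hspa1a, its neighbour on chromosome 17, lay at 97.6, 112, 33.9 and 39.9 CPM in libraries 1 to 4 and 8.41, 3.79, 7.37, 24.4, 12.2 and 10.4 CPM in libraries 18 to 23 (edgeR, log2 fold change -2.71, SE 0.56, adjusted p = 0.00992). Both genes encode the same kind of chaperone, and 62.3% of the 50-base words of the Hspa1b transcript also occur in Hspa1a. Reads from the shared part cannot be placed in either gene with certainty. Length correction left both nearly as they were (-3.49 and -2.66). The cochaperone Hsph1, with a transcript of 6178 bases, was lower (-1.09, adjusted p = 0.0399), whereas Hspe1, with a transcript of 774 bases, of the mitochondrial matrix (1.08, adjusted p = 0.0125) and the collagen chaperone Serpinh1 (1.4, adjusted p = 0.00998) were higher. In the late run the 2 HSP70 genes were thus lower and the mitochondrial chaperone, which has a short transcript, was higher. Over the whole list 2 genes were higher and 3 lower with the length correction.

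Because Hspa1a and Hspa1b fell together, the 150 bases before each gene's start are shown as they stand in GRCm39, 5′ to 3′ on the minus strand. They lie at chr17:35191133-35191282 for Hspa1a and chr17:35178215-35178364 for Hspa1b. Capitals mark GAANNTTC, a pair of the inverted repeats of a heat shock element, which reads the same on both strands.
Hspa1a: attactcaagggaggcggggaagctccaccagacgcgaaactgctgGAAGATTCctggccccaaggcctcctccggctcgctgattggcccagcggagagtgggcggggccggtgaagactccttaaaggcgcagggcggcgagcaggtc
Hspa1b: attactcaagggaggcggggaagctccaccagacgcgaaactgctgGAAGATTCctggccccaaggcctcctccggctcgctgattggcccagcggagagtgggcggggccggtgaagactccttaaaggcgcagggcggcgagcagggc
The element occurs at the same place in both. Of 16949 tested genes, 4.51% hold these letters in the 200 bases before their start, against 5 of 21 chaperone genes and 2 of 26 immediate early genes. A match describes the sequence only.

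Per1 had the smallest p among the lower genes. It is a period gene of the circadian clock and is also induced as an immediate early gene. It was at 76.5, 96, 97 and 84.4 CPM in libraries 1 to 4 and 24.2, 15.2, 26.5, 32.7, 19.1 and 30.3 CPM in libraries 18 to 23, with a gap between the runs (edgeR, log2 fold change -2.06, SE 0.18, adjusted p = 2.70e-04). With the length correction it stayed lower at -1.36 (adjusted p = 0.010). A list of clock genes was then added with these values in view, and 2 of 15 were lower, Per1 and the clock-controlled factor Hlf (-0.69, adjusted p = 0.0225). Over all genes 8.91% were lower. The list median was -0.27, or -0.07 with the length correction, where 1 clock gene was lower. The clock genes Per3 (-1.07, adjusted p = 0.153), Nr1d2 (-0.07, adjusted p = 0.725), Tef (-0.05, adjusted p = 0.851) and Dbp (0.25, adjusted p = 0.493) did not pass. Tagap, a GTPase-activating protein of activated T cells, was at 189, 246, 267 and 171 CPM in libraries 1 to 4 and 85.2, 69.7, 70.3, 65, 95 and 77.1 CPM in libraries 18 to 23 (edgeR, log2 fold change -1.37, SE 0.15, adjusted p = 0.00259), and this value was -1.39 with the correction. Slfn8, an interferon-induced gene, was lower as well (-2.71, adjusted p = 0.011), with an overlap between the runs at library 18.

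Of 26 cytokine and NF-kB genes 3 were higher and 5 lower, where 9.93% were higher and 8.91% lower over all genes. The counts were 2 and 2 with the length correction. Bcl2a1d, a survival factor under NF-kB control, was at 4.1, 4.19, 7.88 and 18.2 CPM in libraries 1 to 4 and 86.3, 62.9, 45.9, 65.7, 87.5 and 41.5 CPM in libraries 18 to 23, without overlap (edgeR, log2 fold change 2.89, SE 0.41, adjusted p = 0.00591). It shares 64% of its 50-base words with Bcl2a1a, so reads from the shared part cannot be placed with certainty. The NF-kB brake Tnfaip3 (-1.63, adjusted p = 0.00993), the subunit Rel (-1.5, adjusted p = 0.0407) and the inflammasome sensor Nlrp3 (-1.41, adjusted p = 0.0101) were lower. Among 26 interferon-stimulated genes 4 were higher and 2 lower. With the length correction 0 were higher and 1 lower (median -0.30). Bst2, which tethers virions and has a transcript of 806 bases, was higher (0.71, adjusted p = 0.0392) but lay at -0.05 with the correction.

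Markers of the choroid plexus were higher in the late run. The choroid plexus is the epithelium that makes cerebrospinal fluid. Of 29 marker genes tested, 22 were higher in libraries 18 to 23 and 0 lower. The filter of 5 counts in 3 libraries let in members through the late run alone, and 7 had no count in libraries 1 to 4, so the count describes these members and supports nothing more. With at least 10 counts required in every library, 5 could be tested and 4 were higher (median log2 fold change 2.46). In WT libraries alone 7 of 19 were higher, and without library 4, as without library 22, 9 of 28. Ttr, the thyroxine carrier, was at 29.2, 0.332, 1.07 and 0.227 CPM in libraries 1 to 4. It was at 165, 413, 217, 63.8, 318 and 375 CPM in libraries 18 to 23, so that library 1 stood above the other early libraries and below every late one (edgeR, log2 fold change 6.2, SE 1.32, adjusted p = 0.0104). Control WT libraries 12 and 15 were at 987 and 610.2 CPM, whereas the other 10 were at most 0.583.

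Enpp2, the enzyme autotaxin, was at 17.6, 9.95, 10.0 and 1.65 CPM in libraries 1 to 4 and 80.0, 256, 82.7, 16.8, 87.6 and 77.1 CPM in libraries 18 to 23, with the highest early value above the lowest late one (edgeR, log2 fold change 4.3, SE 0.56, adjusted p = 0.00479). The anti-ageing hormone gene Kl was at 0 to 2.01 CPM in the early and 1.88 to 32 CPM in the late run, the IGF carrier Igfbp2 at 0 to 0.849 and 3.1 to 36.9 CPM, and the folate receptor Folr1 at 0 to 0.393 and 2.11 to 28.2 CPM. These genes entered the test mainly through the late run, so their values are a description. The water channel Aqp1 had 0 counts in libraries 1 to 4 and 0.356 to 14.7 CPM in libraries 18 to 23, at least 291-fold higher against 3 counts over the early run, and the prolactin receptor gene Prlr was at least 133-fold higher in the same way. Library 19 was the highest and library 21 the lowest of the late run in Ttr, Enpp2 and Aqp1, the reverse of their places in the length index. The summed level of the list was 30.9 to 78.4 CPM in the early run, 106 to 948 in the late run and 24 to 2245 in Control. Fewer cells of a type and less RNA per cell cannot be told apart in bulk libraries, and what carried these transcripts into the sort was not tested.

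The markers of other cells are given against the 9.93% higher and 8.91% lower over all genes. None of 18 neuronal, 16 astrocytic or 5 erythroid markers passed in either direction (edgeR adjusted p of Snap25 = 0.89 and of Gfap = 0.92). Of 14 oligodendrocyte markers Mbp alone was higher (1.13, adjusted p = 0.0139), at 363 to 1603 CPM in the early and 467 to 3139.5 CPM in the late run. Of 15 endothelial markers Pecam1 alone was lower (-0.81, adjusted p = 0.0195). The neutrophil gene S100a8 was at 29.8 to 45.8 and 16.6 to 189 CPM, highest in library 19 (adjusted p = 0.137), and of 12 neutrophil markers Mpo alone passed as higher (adjusted p = 0.0481), at a mean of 0.465 CPM over the 10 libraries. Border-associated macrophages share Cx3cr1 and CD11b with microglia. Their list had Ms4a7 (1.3, adjusted p = 0.00848) and the chemokine Pf4 (0.99, adjusted p = 0.0122) higher and the scavenger receptor Cd163 (-1.13, adjusted p = 0.0156) lower among 13 genes. The chemokine receptor Ccr2 of monocytes was higher (1.41, adjusted p = 0.0293). With the length correction no oligodendrocyte, neutrophil or border-associated macrophage marker passed.

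Antigen presentation and disease-associated genes were higher in part. Of 8 MHC class II genes 4 were higher and 0 lower, where 9.93% were higher and 8.91% lower over all genes. The list median was 0.94, and 3 genes passed without library 4 as without library 22. H2-Aa was at 127, 93.2, 129 and 59.5 CPM in libraries 1 to 4 and 118, 707, 243, 165, 538 and 604 CPM in libraries 18 to 23 (edgeR, log2 fold change 2.36, SE 0.40, adjusted p = 0.00848), with library 18 inside the early range and library 19 the highest. H2-Eb1 (2.31, adjusted p = 0.00914) and H2-Ab1 (1.92, adjusted p = 0.00873) were higher too. As a share of counts the class did not pass the adjusted threshold (genotype-adjusted difference 0.103, exact permutation p = 0.040, adjusted p = 0.0509). The late libraries took 0.0707 to 0.258%, within the 0.0525 to 0.308% of the 12 Control libraries. Against Control the list median was 0.36 for the late run and -0.78 for the early run.

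Of 24 disease-associated genes 10 were higher and 5 lower (median 0.33, or -0.08 with the length correction, where 5 were higher and 4 lower). Without library 4 the counts were 4 and 1, without library 22 3 and 1, and without the genotype term 5 and 0. Over all genes 9.93% were higher and 8.91% lower, or 4.75% and 3.64% with the correction. The list median was 0.50 in WT and -0.06 in APP/PS1 libraries alone. Spp1, osteopontin, was at 13, 5.81, 14.9 and 103 CPM in libraries 1 to 4 and 572, 62, 306, 593, 54.3 and 309 CPM in libraries 18 to 23 (edgeR, log2 fold change 2.28, SE 0.30, adjusted p = 0.00479). The values overlap when genotypes are pooled, since library 4 with APP/PS1 exceeds the WT libraries 19 and 22, but within WT and within APP/PS1 the runs are apart. Asb10, of the ankyrin repeat and SOCS box family, followed the same genotype pattern (1.12, adjusted p = 0.00551). Gpnmb had 0 counts in the early WT libraries and 65.2 CPM in library 4, against 3.79 and 0.966 CPM in the late WT and 332, 202, 239 and 151 CPM in the late APP/PS1 libraries. The galectin gene Lgals3 was higher (1.68, adjusted p = 0.00914). Csf1 (-1.12, adjusted p = 0.0082), a growth factor of microglia, the lipid carrier Apoe (-0.63, adjusted p = 0.0215) and the protease Ctsb (-0.62, adjusted p = 0.020) were lower. Csf1 was at 199 CPM in library 4 and at most 28.4 CPM in the early WT libraries, and without the genotype term its log2 fold change was 0.094. The lipid receptor Trem2 did not pass (0.15, adjusted p = 0.471), and with the length correction it was lower (-0.46, adjusted p = 0.0318).

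Among 21 homeostatic genes 2 were higher and 3 lower, or 1 and 4 with the length correction. Over all genes 9.93% were higher and 8.91% lower, and nothing particular to the list is read from these counts. The receptor gene Gpr34 (0.45, adjusted p = 0.0288) was higher, whereas the transcription factor Mef2c (-0.89, adjusted p = 0.00914) and the receptor Csf1r (-0.72, adjusted p = 0.0388) were lower. Cx3cr1, whose promoter drives the Cre, did not pass (-0.38, adjusted p = 0.0631). Itgam, which encodes the CD11b used for the sort, was at 280.5, 431, 262 and 269 CPM in libraries 1 to 4 and 194, 190.0, 100.4, 93.5, 147 and 129 CPM in libraries 18 to 23 (edgeR, log2 fold change -0.97, SE 0.22, adjusted p = 0.013), so that every late library had less than every early one. Lag3, an inhibitory receptor, lay at 238, 235, 202 and 208 CPM in libraries 1 to 4 and 100.3, 109.8, 57.7, 29.3, 77.1 and 39.5 CPM in libraries 18 to 23 (edgeR, log2 fold change -1.5, SE 0.29, adjusted p = 0.00927). With the length correction Lag3 was at -1.73 (adjusted p = 0.00911). The phosphatase Inpp5d (-0.99, adjusted p = 0.0106) and the membrane-shaping Bin2 (-1.28, adjusted p = 0.0168) were lower with no overlap between the runs.

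Of 21 genes of iron handling, to which Slc11a2 belongs, 1 was higher and 1 lower, shares below the 9.93% higher and 8.91% lower over all genes. Fth1 of ferritin was higher (0.55, adjusted p = 0.0189) and the haem-sensing repressor Bach1 lower (-0.49, adjusted p = 0.0287). The transcript of Fth1 has 929 and that of Bach1 5918 bases, and with the length correction they lay at -0.21 and -0.02, neither past the threshold. Under that correction 2 other iron genes were lower, the ferritin gene Ftl1 (-0.58, adjusted p = 0.0116) and haem oxygenase Hmox1 (-0.42, adjusted p = 0.0484). The iron exporter Slc40a1 had a log2 fold change of 0.13 (adjusted p = 0.50). Of 18 glycolysis and hypoxia genes 5 were higher, with the lactate exporter Slc16a3 at 0.73 (adjusted p = 0.00992), and 1 was lower, hexokinase Hk2 at -0.88 (adjusted p = 0.00848). With the length correction 2 were higher and 0 lower, Slc16a3 lay at 1.11 and Hk2 at -0.20. Of 22 lysosomal genes 1 was higher and 5 were lower, among the latter Ctsa (-0.69, adjusted p = 0.0101) and Ctss (-0.63, adjusted p = 0.0432). The ER chaperone Hspa5 was lower too (-0.61, adjusted p = 0.0164), and the immunoproteasome subunit Psmb8 higher (0.81, adjusted p = 0.00954).

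**Figure D4:**
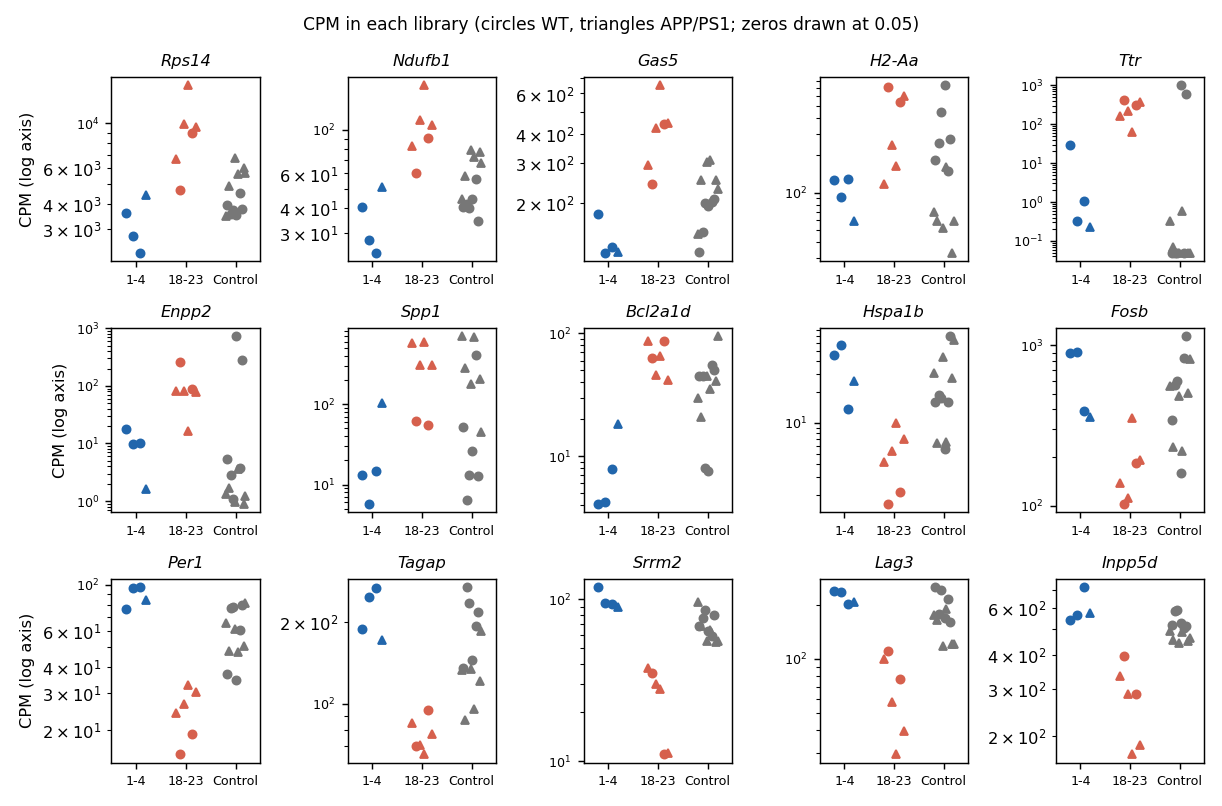
CPM on a log axis for 15 genes in libraries 1 to 4, libraries 18 to 23 and 12 Control libraries, with circles for WT and triangles for APP/PS1. Ndufb1 and Rps14 lie higher and Per1, Srrm2, Lag3 and Inpp5d lower in every late library than in any early one, and Ttr is high in 2 Control WT libraries, at 987 and 610.2 CPM.

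The smallest p-values belonged to a pair of genes with an all-or-none pattern. Prkd1, a protein kinase gene on chromosome 12, was at 0.401, 0.166, 0.312 and 0.186 CPM in libraries 1 to 4 and 17.5, 15.5, 14.1, 13.6, 20.8 and 11.3 CPM in libraries 18 to 23 (edgeR, log2 fold change 6.05, SE 0.33, adjusted p = 8.92e-07). Rps7-ps3, a processed pseudogene of the ribosomal protein gene Rps7 on chromosome X, was at 6.51, 3.98, 3.61 and 4.63 CPM in libraries 1 to 4 and 122, 112, 152, 209, 167 and 162 CPM in libraries 18 to 23 (edgeR, log2 fold change 5.0, SE 0.25, adjusted p = 6.97e-07). Neither stayed with the run alone. Control APP/PS1 libraries 5, 7 and 11 were also high, at 21.3, 22.9 and 19.1 CPM for Prkd1 and 70.8, 94.2 and 129.5 CPM for Rps7-ps3, while the other Control libraries were at most 0.83 and 11.2 CPM. Of all genes in the table these 2 alone separate the same 9 libraries from the other 14. The pattern was looked for after their values were seen. In the Rps7-ps3 transcript 81.6% of 50-base words also occur in transcripts of Rps7, so some of its reads may come from there.

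**Figure D5:**
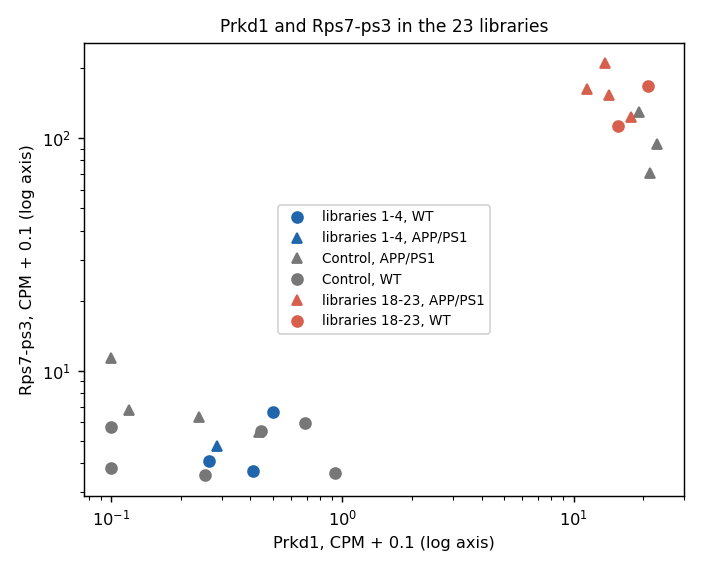
Prkd1 against Rps7-ps3, CPM + 0.1 on log axes, 1 point per library of all 23. All 6 libraries of the late run and 3 Control APP/PS1 libraries lie in the upper right, with the 4 early libraries and 10 Control libraries in the lower left.

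Most genes called in WT libraries went the same way in APP/PS1 libraries, which are other libraries. In WT libraries alone, 2 against 3, 532 genes were higher (3.57%) and 931 lower (6.24%) by edgeR. Of the 531 higher genes that could also be fitted in APP/PS1, 98.1% had the same sign there, with medians of 0.89 and 0.86, and of the 924 lower ones 96.4%. Over all 14064 genes the share was 76.7%. In APP/PS1 alone, 4 libraries against 1, 4 genes were higher and 0 lower, with 2156 at an unadjusted p under 0.05, where the single early library is assumed to vary like the others. By octile of length the median went from 0.58 to -0.71 in WT and from 0.81 to -0.74 in APP/PS1. The immediate early median was -1.34 in WT and -0.33 in APP/PS1, a difference that was not tested for the list. Within both genotypes at once, 2323 genes were above and 2702 below without overlap (13.6% and 15.8% of those tested), among them 69 of 81 ribosomal protein genes above.

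A test of the interaction of run and genotype found 2 genes by edgeR, both with the lower difference in APP/PS1, where library 4 is the whole early arm, with 418 at an unadjusted p under 0.05, and 18 by DESeq2. The gene ENSMUSG00000067017, which has no name in the annotation used, had an interaction of -4.4 on the log2 scale. Gatm, the other, with an interaction of -2.73, encodes the enzyme that makes the precursor of creatine. It was at 195, 207, 218 and 696 CPM in libraries 1 to 4 and 184, 262, 164, 111, 281 and 118 CPM in libraries 18 to 23, so that library 4 alone stood high. Minar1, which had one of the largest folds among the lower genes (-3.36, adjusted p = 0.0239), likewise was at 18.6 CPM in library 4 and at most 1.6 in libraries 1 to 3, and without the genotype term its log2 fold change was 0.0066.

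Each run was last compared with the 12 Control libraries in a fit over 22 libraries. Libraries 18 to 23 had 2443 genes higher (13%) and 2851 lower (15.2%) by edgeR. Libraries 1 to 4 had 0 of either, with 1723 at an unadjusted p under 0.05 and 10 higher and 67 lower by DESeq2. These comparisons share the Control libraries. The ribosomal median was 0.65 for the late run and -0.31 for the early run against Control, the longest octile -0.56 and 0.18, and the immediate early median -0.82 and 0.07. Control libraries thus lay between the runs in length classes and near the early run in immediate early genes. For Spp1 the late run differed from Control by -0.02 (SE 0.66, adjusted p = 0.988). The run and the treatment cannot be told apart in either comparison.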

How the data were processed

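The 23 libraries were poly(A)-selected and sequenced in pairs on a NovaSeq. The values are raw counts per gene as deposited. Before deposit the authors trimmed the reads with Trim Galore 0.6.7, aligned them to mm39 with STAR and counted reads per gene with it, and they fitted DESeq2 1.36.0. Groups come from the labels, and the run from the library number in the column names. The members and gene lists were chosen with earlier results of these data known.

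Genes that reached 5 counts in 3 or more of the 10 libraries were tested with edgeR 4.0.16 in R 4.3.3 (TMM, quasi-likelihood, genotype and run as terms), with Benjamini-Hochberg adjusted p-values under 0.05 taken as past the threshold. Every adjusted p of a gene is from edgeR unless stated. Transcript length, GC content and biotype come from GENCODE M39 on GRCm39, which matched 16950 of 17060 tested genes by ID. The annotation used for counting was another release. Length-corrected fits used offsets from splines of 5 degrees of freedom on length and GC. Shares of counts in each class were compared by a two-sided exact permutation of the run within genotype, adjusted over 14 values. Named genes were the 5 largest folds and 5 smallest p-values in each direction among genes with a mean of at least 5 CPM (folds only where the runs were apart within both genotypes), up to 3 members per list and direction, defining markers and genes named by the study; others were chosen after their values were seen, and some genes are not reported here. Alternatives were DESeq2 1.42.0, limma 3.58.1 (voom), other size factors, filters and covariates, and leaving out each library. The fits were tested on simulated data. The pairwise correlation of the 10 libraries lay between 0.91 and 0.985, so no library was a copy of another. Depth was 33418857 to 46910389 counts in libraries 1 to 4, 34337716 to 52188165 in libraries 18 to 23 and 31128643 to 54872491 in Control libraries.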

Additional observations from a re-analysis of the deposited data

Results flagged for a closer look

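Among 245 sets of values tested, each a named gene in 1 run, 30 had a library whose gap to the others, as a share of the range, exceeded Dixon's 95% critical value, which chance exceeds in about 1 in 20 groups. In libraries 1 to 4 library 4 stood apart most often. It is the sole APP/PS1 library of that run, so genotype and library cannot be told apart there. It was the highest for Minar1 (18.6 CPM), Spp1 (103 CPM), Asb10 (78.6 CPM), Gpnmb (65.2 CPM), Csf1 (199 CPM), Ctsb (4629.8 CPM), Fth1 (2981 CPM), Gatm (696 CPM), Gfap (109 CPM), Ftl1 (1752 CPM), mt-Co3 (0.207 CPM) and Tpr (20.1 CPM) and the lowest for Ms4a7 (9.97 CPM). Library 1 was the highest for Ttr (29.2 CPM), Kl (2.01 CPM), Srrm2 (119 CPM), Rpl34 (1062 CPM) and Gas5 (179 CPM), and library 2 for Itgam (431 CPM).

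In libraries 18 to 23, library 19 was the highest for Kl (32 CPM), Enpp2 (256 CPM), Aqp1 (14.7 CPM) and Prlr (7.44 CPM), which are choroid plexus markers, for the neutrophil genes S100a8 (189 CPM) and Mpo (2.92 CPM) and for Xist (21.6 CPM). Library 21 was the highest for Klf4 (54.5 CPM), Fosb (354 CPM) and Klf2 (321 CPM), which are immediate early genes, and library 22 for mt-Co3 (174 CPM).

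By edgeR's interaction test the difference between the runs passed as unequal in WT and APP/PS1 for ENSMUSG00000067017 and Gatm. The early APP/PS1 arm is library 4 alone, so genotype and this library cannot be told apart. The interaction of ENSMUSG00000067017 was -4.4 on the log2 scale, with a difference between the runs of 4.21 in WT and -0.1 in APP/PS1. The interaction of Gatm was -2.73, with a difference of 0.37 in WT and -2.28 in APP/PS1, where library 4 is the early library.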

How the results depend on the processing

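Of the fits with 1 library left out, the counts fell most without library 4 (91 higher and 100 lower) or library 22 (44 and 76), and they stayed within 1.5 times of the full set without library 1, 18, 19, 20, 21 or 23. Higher genes numbered 1694, and ranged from 44 to 1880 when each library was left out in turn. Lower genes numbered 1520, and ranged from 76 to 2107, with the lowest values without library 22 and the highest without library 18. In a fit over 22 libraries 2617 genes were higher and 2893 lower, and with 23 libraries 2442 were lower. WT libraries alone gave 532 and 931, and APP/PS1 libraries alone 4 and 0, where fewer libraries were compared. With the length and GC correction 811 were higher and 621 lower, and with an absolute log2 fold change above 1 required as well, 378 and 731. DESeq2 gave 18 genes with an interaction against 2 by edgeR. The late run against Control had 3341 genes with library 10 kept in place of 5294, and the early run against Control had 77 by DESeq2 in place of 0. Permuted over all 10 libraries without regard to genotype, the difference in share of counts was 0.142 for mitochondrially encoded genes, 0.0729 for MHC class II genes and -0.015 for TEC genes (unspliced models still to be checked by experiment), the last now past the threshold (exact permutation p = 0.00952). Of 2291 values for 110 named genes, 1869 kept their direction and side of the threshold, 401 lost and 13 gained a call, and 8 changed sign. Without the genotype term Minar1 was at 0.0066 and Csf1 at 0.094. With the length and GC correction Bst2 was at -0.049, Fth1 at -0.21, Xist at 0.45, Trem2 at -0.46, Ftl1 at -0.58 and Hmox1 at -0.42. The cause of these changes was not tested. No paired analysis was possible because each library number occurs once. Depth limits the low genes: a count of 0 in all 4 early libraries allows up to 3 counts over the run, for counting error only.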

Other observations

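Genes of the unfolded protein response, which expands the folding capacity of the endoplasmic reticulum, had 3 of 14 higher and 2 lower, and 0 and 0 with the correction for length and GC, where 9.93% were higher and 8.91% lower over all genes without it. Manf (0.61, edgeR adjusted p = 0.0144), Sdf2l1 (0.87, adjusted p = 0.00991) and the transcription factor Xbp1 (0.43, adjusted p = 0.0411) were higher in libraries 18 to 23, and Hspa5 (-0.61, adjusted p = 0.0164) and the disulfide isomerase Pdia4 (-0.79, adjusted p = 0.0209) were lower. The higher members have transcripts of 1113 to 2247 bases and the lower ones of 4953 and 5495 bases. Among MHC class I presentation genes 2 of 12 were higher, the immunoproteasome subunits Psmb8 (0.81, adjusted p = 0.00954) and Psmb9 (0.88, adjusted p = 0.0218), and with that correction 0 were higher and 2 lower (median -0.10). Of 21 cell cycle genes Pcna alone passed (0.82, adjusted p = 0.0101). Of 11 T and NK cell markers Klrd1 alone was higher (0.95, adjusted p = 0.0449), and of 12 B and plasma cell markers Bank1 alone was lower (-0.97, adjusted p = 0.0166). With the correction Pcna lay at 0.23, Klrd1 at 0.19 and Bank1 at -1.03.

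Control library 10, a single library that the study left out, resembled the late run in some classes and not in others. Ribosomal protein genes took 23.4% of its counts, against 12.6 to 22.6% in libraries 18 to 23 and 9.53 to 15.7% in the other 12 Control libraries. The respiratory chain took 1.85%, against 1.09 to 1.84% and 0.84 to 1.24%. Immediate early genes took 1.14%, inside the range of the late run. Choroid plexus markers took 0.0028%, below every library of the late run, and Prkd1 and Rps7-ps3 were at 0 and 11.2 CPM, against 11.3 to 20.8 and 112 to 209 CPM in the late run.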
